A study of Mus musculus with 8 samples.

Results

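Granzymes are serine proteases that cytotoxic lymphocytes pack into secretory granules and deliver into target cells through the pore-forming protein perforin. They are made as inactive proenzymes, the dipeptidyl peptidase cathepsin C removes the activating dipeptide, and the proteoglycan serglycin holds them in the granule. In the mouse several granzyme genes lie in one run with mast cell protease genes and cathepsin G. RUNX1 is the DNA-binding subunit of a core binding factor and is required for blood cells to form from hemogenic endothelium, and RUNX family proteins are known to act on granzyme genes in cytotoxic T cells.

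The 10 granzyme genes described here (Gzma, Gzmb, Gzmc, Gzmd, Gzme, Gzmf, Gzmg, Gzmk, Gzmm and Gzmn) were taken by gene family, as all probes whose RefSeq accession maps to one of these symbols. They were singled out because of their difference between induced and uninduced cells, so their differences are a description and carry no test. The arrays held 11 probes for them, 2 for Gzme and 1 for each other gene, among 55681 probes and 20145 named genes. Only 7 of the 10 lie on chromosome 14, in a single run. Gzma and Gzmk lie on chromosome 13 and Gzmm on chromosome 10, so the name of a chromosome 14 cluster does not cover them.

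RNA came from mouse cells of strain C57BL/6 that were differentiated from embryonic stem cells and carried iRUNX1, a Runx1 gene switched on by doxycycline through a Tet-on system. Embryoid bodies grew for 3.25 days, Flk-1+ cells were selected and selected again after further culture, and the cells were then kept as hemogenic endothelium for 2 days. Induced cells (DOX+) received doxycycline overnight at 0.3 µl/ml, the unit the labels give, and uninduced cells (DOX-) received none. Both groups carry the inducible gene. Whether the cells' own Runx1 alleles are intact, and how many clones the line represents, was not given in the sources used here. Doxycycline-treated cells that lack iRUNX1 were not analysed here.

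Each group had 3 arrays, labelled as biological replicates, and 1 further array labelled as a technical repeat, which is given as a value and entered no test. Unless stated, SEs and calls come from a fit that leaves out the replicate number, although samples with the same number deviated together. With that number as a block (the replicate block) 1360 genes were higher and 987 lower, against 601 and 314 without it. A gene said not to pass may thus pass with the block. All 10 markers of hemogenic endothelium that were examined, Kdr, Cdh5 and Pecam1 among them, were well above background on each of the 6 replicate arrays. Of the 10, Gfi1 rose (log2 difference 3.38, SE 0.51, adjusted p = 0.0145 by limma) and Sox17 (-3.54), Tek (-1.13) and Eng (-0.92) fell, with adjusted p = 0.0181, 0.0413 and 0.0234. The calls of Gfi1 and Sox17 were lost without replicate 2 of either group, that of Sox17 also without uninduced replicate 3, that of Tek without any 1 of the 6 arrays, and that of Eng without any but uninduced replicate 1. Tek and Eng also lost theirs with median centring and spike-in scaling, which put Eng at 0.21. Runx1 had 2 probes, and values of the one not used for the gene are not given here. The used probe read 13.8, 11.4 and 17.5 in processed signal on the induced arrays. On the uninduced ones it read 26.7, 14.3 and 17.4 (log2 difference -1.03, SE 0.32, adjusted p = 0.126 by limma). Detection held for 2 induced and 3 uninduced arrays, so this probe entered the test through the uninduced group alone. Its dim signals do not check the induction. With the replicate block this probe passed as lower (adjusted p = 0.0214 by limma), as it did without induced replicate 3 (adjusted p = 0.0438 by limma). Both calls rest on those dim signals. Whether that probe matches the inducible gene was not given in the sources used here.

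The promoters are shown first because several genes of the run share sequence there while their signals differ. RefSeq promoter windows in build GRCm38.p6 were found for all 10 genes, 11 windows in all since Gzmm has 2, and the 250 bases before the annotated start of 5 genes of the run are printed 5′ to 3′ on the gene's strand. All 5 lie on the minus strand of chromosome 14. Capitals mark the core RUNX motif TGTGGT, or ACCACA where it lies on the other strand, and no other motif. Gzmb encodes the best known member, Gzmc lies beside it, Gzme has 2 probes, Gzmf was not detected, and Gzmn has no match. Their windows are chr14:56262335-56262584 for Gzmb, chr14:56234658-56234907 for Gzmc, chr14:56120626-56120875 for Gzme, chr14:56211408-56211657 for Gzmf and chr14:56174600-56174849 for Gzmn.
Gzmb: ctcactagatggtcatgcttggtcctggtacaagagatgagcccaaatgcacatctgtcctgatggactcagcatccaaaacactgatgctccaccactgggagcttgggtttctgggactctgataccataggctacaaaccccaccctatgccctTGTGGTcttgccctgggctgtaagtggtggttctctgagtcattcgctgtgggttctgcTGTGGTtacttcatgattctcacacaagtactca
Gzmc: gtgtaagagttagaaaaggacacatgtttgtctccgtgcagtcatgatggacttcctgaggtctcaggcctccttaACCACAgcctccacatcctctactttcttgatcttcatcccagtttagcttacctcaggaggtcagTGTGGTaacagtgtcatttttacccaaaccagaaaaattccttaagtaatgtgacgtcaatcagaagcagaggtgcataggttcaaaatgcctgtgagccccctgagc
Gzme: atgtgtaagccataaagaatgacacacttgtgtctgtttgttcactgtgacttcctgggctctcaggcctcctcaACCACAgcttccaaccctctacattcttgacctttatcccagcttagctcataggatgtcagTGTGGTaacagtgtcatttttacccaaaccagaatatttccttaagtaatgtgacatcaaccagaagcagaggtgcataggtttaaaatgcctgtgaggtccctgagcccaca
Gzmf: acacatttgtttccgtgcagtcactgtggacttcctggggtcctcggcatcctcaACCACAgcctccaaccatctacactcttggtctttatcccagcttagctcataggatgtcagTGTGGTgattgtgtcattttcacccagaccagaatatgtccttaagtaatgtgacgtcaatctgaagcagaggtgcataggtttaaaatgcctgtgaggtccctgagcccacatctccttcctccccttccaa
Gzmn: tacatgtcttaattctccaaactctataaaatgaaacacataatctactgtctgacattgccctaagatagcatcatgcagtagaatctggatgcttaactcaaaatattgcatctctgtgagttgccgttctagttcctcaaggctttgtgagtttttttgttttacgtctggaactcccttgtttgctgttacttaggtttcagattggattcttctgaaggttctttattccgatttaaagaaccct

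TGTGGT was found on either strand in 8 of the 11 granzyme windows, against 14.05% of all 32851 promoter windows of the same length. At least 2 matches stood in 6 of the 11, against 1.27% of all windows. These 6 belong to Gzmb, Gzmc, Gzmd, Gzme, Gzmf and Gzmg. The variant RUNX core TGCGGT stood in 1 window, of Gzmm, against 5.1% of all windows. Either form stood in 9 of the 11, against 18.59% of all windows. In Gzmd, Gzme, Gzmf and Gzmg the 2 matches start 62 bases apart and face opposite ways, and in Gzmc they start 66 bases apart. In Gzmb they face the same way, 59 bases apart, with the nearer one 34 to 29 bases before the start.

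The same letters sorted the genes by their log2 difference, induced minus uninduced, only in part. The genes were chosen on that contrast, so the sorting is a description. Gzmb, Gzmc, Gzmd, Gzme and Gzmg hold a pair of matches and had fitted differences of 7.39 to 11.27. Gzmf also holds a pair and was not detected with its 1 probe. Gzma and Gzmm hold 1 TGTGGT match each and stood at -0.26 and 0.22. Gzmk holds none and stood at -0.26. Gzmn, whose signals were dim, holds none and stood at 2.56. Whether the matches bear on the signal was not tested. The windows of Gzmd and Gzme were identical at 94.8% of aligned positions, those of Gzmf and Gzmg at 82.7%, and those of Gzmc and Gzme at 81.8%, so matches shared among them are not independent. The window of Gzmb was identical to those of the other genes at 47.3% to 54.5% of aligned positions.

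Other motifs were searched on both strands as well. The ETS motif AGGAAGT stood in 5 windows, those of Gzmc, Gzmd, Gzme, Gzmf and Gzmg, against 7.69% of all windows. The cyclic AMP response element TGACGTCA, added after the windows had been read, stood in those of Gzmc, Gzmf and Gzmg, against 1.55% of all windows. The AP-1 motif TGANTCA stood only in that of Gzmb, 58 to 52 bases before the start, against 6.75% of all windows. The GATA motif AGATAA stood in 1 granzyme window, of Gzmm, against 9.99% of all windows. A match of letters shows no binding, and binding was not measured on these arrays.

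Signal in the family divided sharply by gene. Values below are processed signals in arbitrary units, given for replicates 1, 2 and 3. Differences are induced minus uninduced on the log2 scale, relative to each array's 75th percentile, with the SE of the limma fit across all genes. Brightness depends on the probe, so levels of different probes are not set against each other. Since these are whole cultures, more cells that express a gene and more RNA per cell cannot be told apart.

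Gzmb encodes granzyme B, the aspartate-specific protease that cleaves caspases and triggers apoptosis in target cells. It read 25764, 9304 and 6777 on the induced arrays, against 12.9, 5.61 and 5.36 on the uninduced ones. The groups did not overlap, and on no uninduced array was the probe well above background. The mean relative log2 signal was 4.11 ± 0.56 in induced cells and -5.94 ± 0.16 in uninduced cells (SD, n = 3 each), a difference of 10.05 (SE 0.29).

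A probe that is not well above background in one group has only a bound there. The fold is therefore given against, on each uninduced array, either the dimmest signal that any probe well above background had or, if brighter, what the probe itself read. That dimmest signal is not a detection limit for each probe. On uninduced replicate 1 Gzmb was undetected at a relative log2 signal of -5.76, while the dimmest detected probe read -5.96. Every fold given as at least a value therefore holds on this measure only. Gzmb was at least 686-fold higher in induced cells on this measure. After normexp background correction, which lifts the lowest signals, its log2 difference was 6.70.

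Gzmc, a granzyme of activated cytotoxic lymphocytes and the neighbour of Gzmb, read 31678, 17027 and 9382 on the induced arrays, against 11.4, 2.28 and 3.69 on the uninduced ones. Again the groups were far apart and no uninduced array was well above background. The fitted difference was 11.27 (SE 0.41). The fold was at least 1044, and the normexp difference was 7.35.

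Gzme read 143323, 30798 and 32841 on the induced arrays with one probe, against 190, 49.1 and 78.0 on the uninduced ones. The other probe read 123128, 33634 and 30066 on the induced arrays, against 195, 64.4 and 44.4 on the uninduced ones. Unlike Gzmb and Gzmc, Gzme was well above background on all 3 uninduced arrays with both probes, so its fold is not a bound. It was 384-fold by the first probe (log2 difference 8.59, SE 0.46) and 399-fold by the second (8.64, SE 0.41), and normexp gave 7.80 and 7.89.

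Gzmd and Gzmg follow Gzme in the run and are its close relatives. Gzmd read 3855, 1099 and 879 on the induced arrays, against 2.68, 2.08 and 3.102 on the uninduced ones (log2 difference 8.62, SE 0.44, at least 94.8-fold). Gzmg read 2025, 449 and 282 on the induced arrays, against 2.53, 1.96 and 3.103 on the uninduced ones (log2 difference 7.39, SE 0.57, at least 38.8-fold). Uninduced arrays never showed either of them well above background, and in neither did the groups overlap. Their differences depended more on the treatment of low signals, being 4.22 for Gzmd and 3.03 for Gzmg after normexp.

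Gzmn, whose product is known mainly from mouse testis, lies between Gzmg and Gzmf and was measured with 10 spots per array. It read 127, 73.4 and 47.8 on the induced arrays, against 11.8, 10.4 and 5.03 on the uninduced ones. The groups did not overlap, yet all signals were dim. All usable spots (9 of 9, 9 of 9 and 10 of 10) were well above background on the induced arrays, against 3 of 10, 5 of 9 and 0 of 10 on the uninduced ones. The difference was 2.56 (SE 0.28), and after normexp it was 0.51 and did not pass the threshold (limma, adjusted p = 0.232).

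Gzmf, between Gzmn and Gzmc, was the exception among the granzymes of the run. It read 2.45, 2.97 and 10.66 on the induced arrays, against 2.67, 2.05 and 3.15 on the uninduced ones. It was not well above background on any array and was not tested.

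The 3 granzymes outside chromosome 14 were well above background on all 6 arrays and did not separate the groups. Gzma encodes granzyme A, the tryptase of the family, and read 62.0, 31.5 and 37.0 on the induced arrays, against 57.1, 27.3 and 22.6 on the uninduced ones (log2 difference -0.26, SE 0.16). Gzmk, its neighbour and also a tryptase, read 282, 189 and 139 on the induced arrays, against 199, 136 and 133 on the uninduced ones (-0.26, SE 0.18). Gzmm, which prefers to cleave after methionine, read 500.0, 232 and 174 on the induced arrays, against 300.3, 131 and 93.3 on the uninduced ones (0.22, SE 0.24). For each of these 3 genes the relative log2 values of the groups overlapped, and none passed the threshold.

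**Figure D1:**
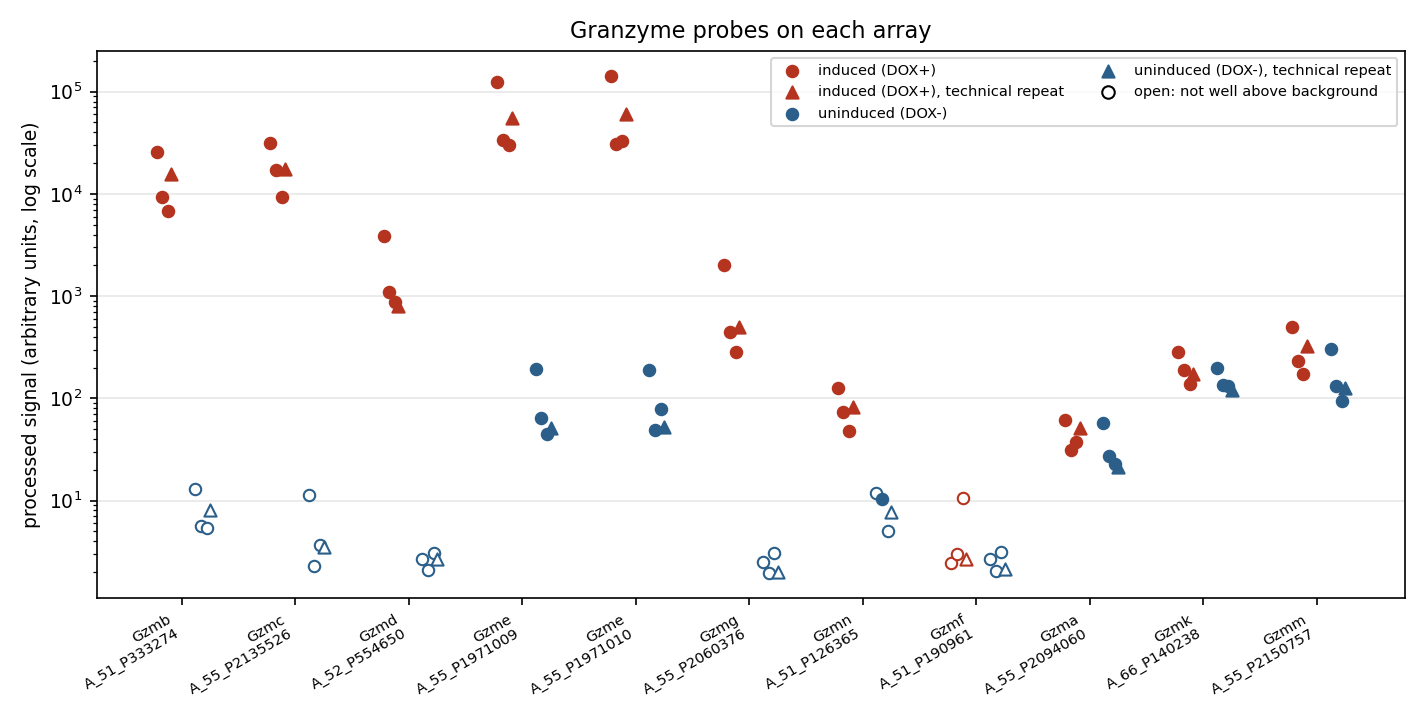
Processed signal (log axis, arbitrary units) of each of the 11 granzyme probes on each of the 8 arrays, induced left of uninduced, with circles for replicates, triangles for technical repeats and open symbols for a probe not well above background. Gzmb, Gzmc, Gzmd, Gzme, Gzmg and Gzmn are separated by group, while Gzmf, Gzma, Gzmk and Gzmm are not; levels of different probes are not comparable.

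Of the 9 granzyme genes tested, 6 were past an adjusted p under 0.05 upward, 0 downward and 3 in neither direction, where 4.14% of all 14518 genes tested were higher and 2.16% lower. Because the genes were chosen on this contrast, and Gzmb, Gzmc, Gzmd, Gzmg and Gzmn passed the filter on dim probes only through the induced arrays, nothing is read from that count. The median difference of the 9 genes was 7.39, or 5.28 with bounds in place of fitted values, beside 0.09 for all genes tested. The order of the differences within the family depends on the sub-background readings, since Gzmc had the largest fitted value and Gzme the largest with normexp.

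Scaling to the 4 brightest spike-in probes in place of the 75th percentile raised every difference, since against those probes the percentile itself differed by 1.02, 0.75 and 1.61 log2 units, induced minus uninduced, in replicates 1, 2 and 3. The median of all genes was then 1.22, with 726 genes higher and 11 lower, against 601 and 314 with the percentile. On that scale Gzma and Gzmk stood at 0.87 each and Gzmm at 1.34, near the median of all genes, and Gzmb and Gzmc at 11.18 and 12.40. The sign for Gzma and Gzmk thus follows that shift of all genes.

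**Figure D2:**
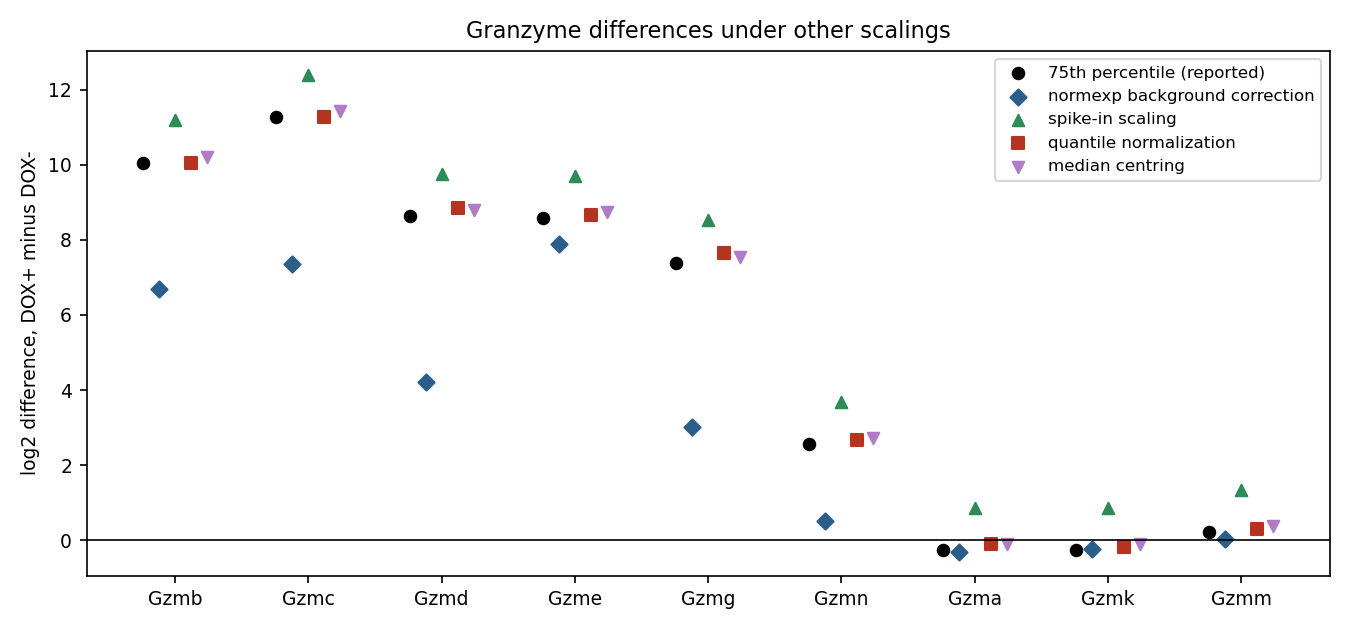
Log2 difference, induced minus uninduced, of the 9 granzyme genes tested, under the reported 75th percentile scaling and 4 other treatments of the signal. Gzmb to Gzmg stay above 3 throughout, Gzmn falls to 0.51 with normexp, and Gzma and Gzmk lie below 0 except with spike-in scaling.

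Replicates differed in size within the induced group. Relative to the 75th percentile, induced replicate 1 was the highest of the 3 induced replicates for Gzmb, Gzmc, Gzmd, Gzmg, Gzmm, Gzmn and both Gzme probes. The range over the 3 was 2.00 log2 units for Gzmg, 1.29 for Gzmd, 1.08 for Gzmb and 0.37 for Gzma. Matched by replicate number, the difference of Gzme, which was measured in both groups, was 9.08, 8.64 and 8.03 by one probe and 8.83, 8.38 and 8.72 by the other. Every pair was positive.

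The technical repeat arrays gave differences of 10.12 for Gzmb, 11.50 for Gzmc, 7.43 for Gzmd, 7.19 for Gzmg and 2.62 for Gzmn, and of 9.37 and 9.27 for the Gzme probes. Gzmd on the induced repeat array was below all 3 induced replicates. Gzma, at 0.45 on the repeat arrays and -0.26 in the replicates, changed sign.

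Close relatives raise the question whether a probe also takes up RNA of a sister gene. Over the 4 induced arrays the log2 difference between the 2 Gzme probes moved over a range of 0.35. That between Gzmd and Gzme moved over 1.15 or 1.42, depending on the Gzme probe, and that between Gzmb and Gzmc over 0.68. Over the 3 replicates alone the Gzmd and Gzme range was 0.16 or 0.41, so the wider value rests on the technical repeat array. Probe sequences were not used here, and shared signal among Gzmd, Gzme and Gzmg was not tested.

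Along chromosome 14 the granzymes share their run with other serine protease genes, which the choice of members did not use, although their rise was known when the run was examined. The run holds 16 genes in the RefSeq order Cma1, Mcpt-ps1, Cma2, Mcpt1, Mcpt2, Mcpt9, Mcpt4, Mcpt8, Ctsg, Gzme, Gzmd, Gzmg, Gzmn, Gzmf, Gzmc and Gzmb. Of the 9 that are not granzymes 7 were tested, of which 6 rose and 0 fell, beside 4.14% higher and 2.16% lower of all genes tested. Mcpt-ps1, Mcpt1, Mcpt2, Mcpt4 and Mcpt8 entered the test through the induced arrays alone, as most granzymes did, so their count and calls are a description too. Mcpt8, a basophil protease, read 3096, 823 and 1016 on the induced arrays, against 24.5, 2.19 and 7.09 on the uninduced ones (log2 difference 6.96, SE 0.67, adjusted p = 0.00343 by limma). It was detected on 1 of the 3 uninduced arrays, and normexp gave 3.73.

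Mcpt1, the mucosal mast cell chymase, read 1246, 255 and 248 on the induced arrays, against 6.89, 2.19 and 3.23 on the uninduced ones (at least 26.2-fold, adjusted p = 0.00196 by limma). Mcpt2 was at least 10.4-fold and the pseudogene Mcpt-ps1 at least 3.02-fold higher, and both lost the call with normexp. Mcpt4, a connective tissue mast cell chymase, was likewise detected on 1 uninduced array and had a log2 difference of 5.34 (adjusted p = 0.00308 by limma), or 2.92 with normexp. Ctsg, which encodes cathepsin G of neutrophil granules, read 355, 119 and 95.6 on the induced arrays, against 60.6, 22.1 and 19.1 on the uninduced ones (1.83, SE 0.32, adjusted p = 0.0234 by limma), a call lost with normexp and without uninduced replicate 2 or 3 or induced replicate 2. Cma2 did not pass (0.58, adjusted p = 0.269 by limma), and Cma1 and Mcpt9 were not well above background on any array.

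Genes on either side of the run were set beside it. Of the 10 annotated protein-coding genes before it and the 10 after it, 16 were tested and 0 passed the threshold in either direction, with differences between -1.23 and 0.86 and a lowest adjusted p of 0.122. With the replicate number as a block in the limma fit, 1 of the 16 rose and 2 fell, where 9.37% of all genes were higher and 6.8% lower. Without induced replicate 3, 1 rose.

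Around the granzymes on other chromosomes, 5 genes were examined on each side of each gene. Of the neighbours of Gzma and Gzmk only Arl15 rose (0.88, SE 0.13, adjusted p = 0.0126 by limma), a call lost without uninduced replicate 2 or induced replicate 3. Of the 9 tested neighbours of Gzmm 0 passed.

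**Figure D3:**
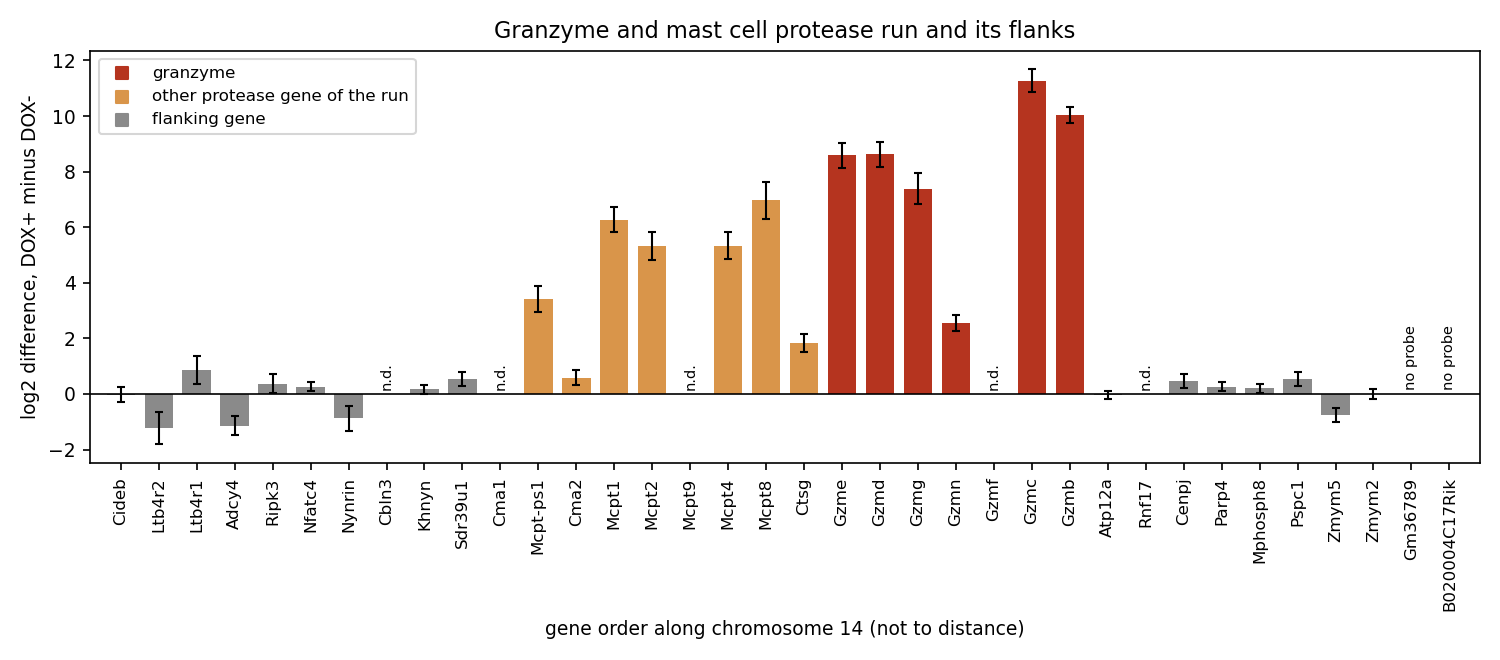
Log2 difference, induced minus uninduced, of the 16 genes of the chromosome 14 run and 10 annotated genes on each side, in gene order and not to distance, with bars for the fitted difference, error bars for its SE, and n.d. for a gene not well above background in either group. Of the 13 genes of the run that were tested, 12 pass the threshold upward, beside 4.14% of all genes tested. Most of these 12 entered the test through the induced arrays alone, so the count is a description. Cma2 does not pass, and Gzmf, Cma1 and Mcpt9 are not detected. The 16 flanking genes tested lie between -1.23 and 0.86. Bars of genes undetected in uninduced cells are fitted values, not bounds.

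The 5 genes outside the family with profiles nearest to that of Gzmb over the 6 arrays were Mcpt8, Calm4, Mgp, Mcpt1 and Ccr7, at Euclidean distances of 4.18, 4.19, 4.32, 4.69 and 4.72 between centred log2 profiles. For Gzme the same 5 genes were nearest, at 2.30 for Mcpt8, 2.85 for Mcpt1, 3.08 for Mgp, 3.101 for Calm4 and 3.23 for Ccr7. Over 2 groups such a distance mostly reflects the size of the difference between them. Mcpt8 and Mcpt1 lie in the run, and the other 3 are a calmodulin-like gene, a matrix calcification inhibitor and a chemokine receptor.

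Genes that act with granzymes were taken as lists chosen with results of these data known. The counts of these and the marker lists below stand beside 4.14% higher and 2.16% lower of all genes tested. Of 9 genes that activate or carry granzymes, 3 rose and 1 fell, with a median difference of 0.02 beside 0.09 for all genes tested. Ctsc, the activating peptidase cathepsin C, read 1873, 642 and 704 on the induced arrays, against 325, 155 and 112 on the uninduced ones. The groups did not overlap, and Ctsc rose by 1.81 (SE 0.25, adjusted p = 0.0114 by limma). Srgn, which encodes serglycin, read 778, 410 and 272 on the induced arrays, against 227, 81.4 and 71.3 on the uninduced ones (1.41, SE 0.25, adjusted p = 0.0255 by limma).

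Gnptab, an enzyme of the mannose 6-phosphate tag for lysosomal delivery, rose (0.91, adjusted p = 0.019 by limma), and Igf2r, a receptor of that tag, fell (-1.08, adjusted p = 0.0291 by limma). The call was lost for Srgn on leaving out induced replicate 1 or 2 or uninduced replicate 2 or 3, for Gnptab on leaving out any array but uninduced replicate 1, and for Igf2r on leaving out any array but uninduced replicate 1 or 3. Prf1, which encodes perforin, read 701, 386 and 436 on the induced arrays, against 495, 245 and 265 on the uninduced ones. Relative to the 75th percentile this was a difference of 0.02 (SE 0.16, adjusted p = 0.95 by limma). Prf1 was well above background on all 6 arrays.

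Of 9 genes of granule transport and release, 0 rose and 0 fell, with differences between -0.27 and 1.67, a median of 0.28 and 2 rises with the replicate block. Of 6 serpins that inhibit granzymes or related proteases 5 were tested, of which 0 rose and 1 fell (median -0.70). Serpinb1a, an inhibitor of neutrophil proteases, read 1791, 687 and 640 on the induced arrays, against 10605, 2665 and 1768 on the uninduced ones (-2.60, SE 0.41, adjusted p = 0.0162 by limma). Its call was lost without induced replicate 2 or 3 or uninduced replicate 2. With spike-in scaling 0 of the 5 fell (Serpinb1a -1.47, adjusted p = 0.17 by limma), against 2 with normexp, quantile or median scaling and 3 with the replicate block. Serpina3n had the largest difference of the list, -3.065 (SE 0.68), and narrowly missed the threshold (adjusted p = 0.0502 by limma). Serpinb9, the intracellular inhibitor of granzyme B, read 2461, 688 and 714 on the induced arrays, against 706, 303 and 301 on the uninduced ones (0.81, SE 0.31, adjusted p = 0.197 by limma).

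Of 15 transcription factors known from granzyme expression in lymphocytes or as RUNX partners, 12 were tested, of which 2 rose and 0 fell, with a median of 0.18. Stat4, which acts downstream of interleukin 12, read 266, 377 and 576 on the induced arrays, against 48.3, 26.3 and 19.0 on the uninduced ones (3.14, SE 0.47, adjusted p = 0.0133 by limma). Batf, a partner of AP-1 proteins, read 41.4, 63.7 and 31.1 on the induced arrays, against 4.93, 2.27 and 3.40 on the uninduced ones (at least 2.65-fold, adjusted p = 0.00639 by limma). Batf was detected on 0 of the 3 uninduced arrays and entered the test through the induced arrays alone. Both calls were lost with normexp, Batf at 0.22 and Stat4 at 1.71, and that of Stat4 also without replicate 2 of either group. The lymphocyte factors Eomes (0.30, adjusted p = 0.646 by limma) and Runx3 (-0.17, adjusted p = 0.522 by limma) did not pass, and Tbx21 was above background on 2 induced arrays and 1 uninduced array.

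**Figure D4:**
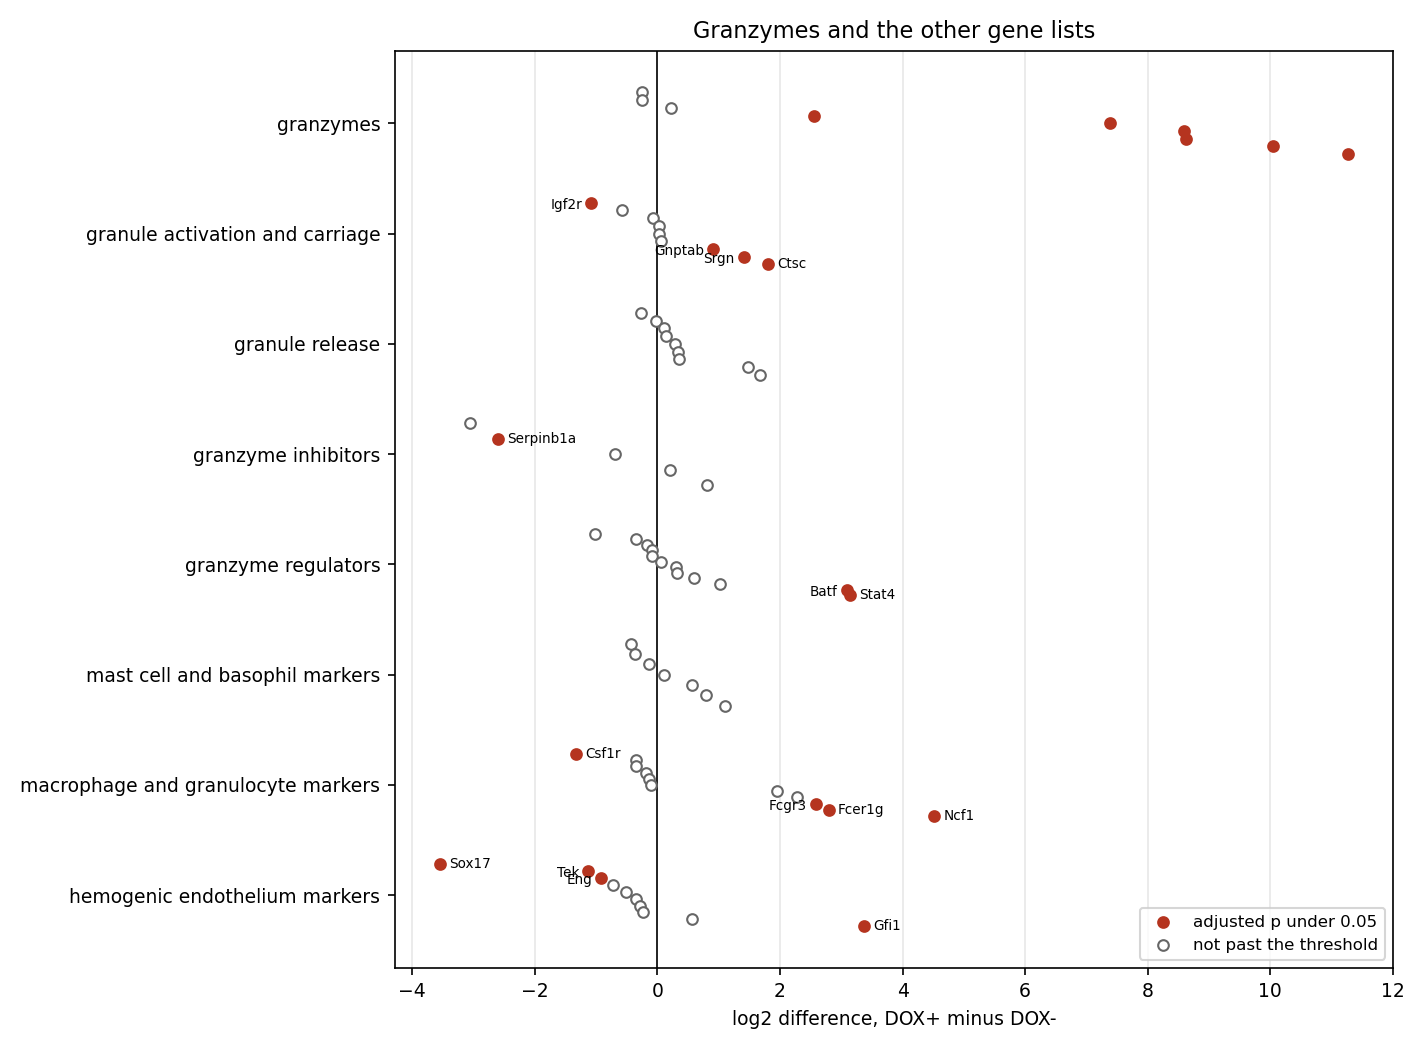
Log2 difference, induced minus uninduced, of each tested gene of the granzyme list and 7 other lists, NK and T cell markers not plotted, 1 row per list, with filled points for an adjusted p under 0.05 and open points otherwise. The granzymes reach 11.27, while the other lists lie between -3.54 and 4.51.

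Markers of cells that normally hold these proteases were read beside them. Of 24 markers of natural killer (NK) and T cells 10 were tested, of which 1 rose and 0 fell, while 0 rose with normexp. A further 10 were not well above background on any array, namely Cd3d, Cd3g, Cd247, Cd8b1, Cd2, Klrb1c, Klrk1, Ncr1, Il2ra and Ifng. Cd3e, a T cell receptor subunit, was above background on all 6 arrays and did not pass (-0.33, adjusted p = 0.55 by limma). Zap70 (1.49, or 0.91 by its other kept probe), Il2rb (1.33), Cd7 (1.08) and Lck (0.26) were higher in induced cells and did not pass. Cd4 (-0.13), Cd5 (-0.11), Cd8a (-1.31) and Itga2 (-2.04) were lower and did not pass. Zap70, Il2rb, Cd8a and Itga2 entered the test through a single group. The summed signal of the 24, as a multiple of the array's 75th percentile, was 11.4, 11.96 and 10.3 on the induced arrays, against 8.86, 13.6 and 16.7 on the uninduced ones, so the groups overlapped. By replicate number the induced sum was the higher in replicate 1 and the lower in replicates 2 and 3. Cd3e and Cd4 carried most of it, at 4895 and 4694 of 11113.5 on induced replicate 1 before scaling.

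Of 16 mast cell and basophil markers 15 had a probe and 7 were tested, of which 0 rose and 0 fell, and 2 rose with the replicate block. The receptor subunits Fcer1a and Ms4a2, the tryptase Tpsg1 and the receptor Mrgprb2 were not well above background on any array, and Cpa3, a mast cell carboxypeptidase, was so on 1 induced array and 0 uninduced ones. Kit, the stem cell factor receptor, which hemogenic endothelium also carries, stood at 0.57 (adjusted p = 0.678 by limma). Slc18a2 stood at 1.10, or 2.44 by its other kept probe, and Gata2 at 0.79. Mitf stood at 0.11 (other kept probe -0.20), Prss34 at -0.14, Hdc at -0.36 and Tpsb2 at -0.42 (other kept probe 0.34). With the probes used none of these genes passed. All were well above background on all 6 arrays except Prss34, which was so on 3 induced and 2 uninduced ones. The summed signal of the 15, on the same scale, was 7.0, 13.3 and 18.8 on the induced arrays, against 5.07, 8.27 and 9.68 on the uninduced ones. The groups overlapped, although by replicate number the induced sum was the higher in every pair. A few bright probes carried most of the sum. The part of mast cells and basophils in the granzyme signal was not tested.

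Of 16 macrophage and granulocyte markers 11 were tested, of which 3 rose and 1 fell. Ncf1, part of the NADPH oxidase of phagocytes, rose by 4.51 (adjusted p = 0.00137 by limma), Fcer1g, an Fc receptor chain, by 2.79 (adjusted p = 0.00373 by limma), and Fcgr3, an Fc receptor, was at least 5.63-fold higher (adjusted p = 0.0262 by limma). Fcgr3 was detected on 0 of the 3 uninduced arrays and lost its call with normexp (0.61). Ncf1 was detected on 2 of the 3 and stood at 2.19 with normexp. Both entered the test through the induced arrays alone, so their calls are a description. Where only probes detected on all 6 arrays were kept, 1 of these markers rose. Csf1r, the macrophage growth factor receptor, fell (-1.33, adjusted p = 0.0258 by limma), with kept probes between -2.14 and -0.42. The calls of Fcgr3 and Csf1r were each lost on leaving out 5 of the 6 arrays in turn and without the filter on dim probes. That of Csf1r was also lost with spike-in scaling (-0.20). The summed signal of the 14 markers with a probe, on that scale, was 140.3, 123 and 120.2 on the induced arrays, against 158, 154 and 122 on the uninduced ones. The groups overlapped, and by replicate number the induced sum was the lower in every pair. Csf3r and Itgam, which did not pass, carried most of it, at 83229 and 47551 of 136567 on induced replicate 1 before scaling. A rise of a dimmer marker such as Ncf1 hardly moves such a sum. The part of such cells in the granzyme signal was not tested.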

How the data were processed

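RNA of 8 samples was measured on Agilent 1-colour arrays, all on 1 slide and scanned together per the file headers. The authors deposited the spot intensity as processed signal on a linear scale, already background-subtracted, with flag columns. Per the file headers this was made with Feature Extraction 10.7.3.1, while the submitters' processing notes give 10.7.1.1 and limma. A further table of normalized values, with 8 columns, was not used. Groups came from the titles.

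Control and outlier spots (114 to 246 per array) were left out. From each log2 signal that of the array's 75th percentile (338 to 973) was subtracted, and spots of a probe were averaged. A probe was kept if over 0.5 of its spots were well above background on all 3 replicates of a group, which held for 18969 probes with a gene name, and a gene was read from its brightest kept probe. The share of spots well above background was 55.6% to 70.4%, and none was saturated. The number of arrays limits the precision, and the p-values measure the spread between samples labelled as biological replicates. RefSeq accessions named 26582 probes through a table of GRCm38.p6, used for names and gene order. Promoters came from RefSeq, in the same build.

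Tests were two-sided and used limma 3.58.1 under R 4.3.3 (lmFit, then eBayes). P-values were adjusted by Benjamini-Hochberg over the 14518 genes tested, and 0.05 was the threshold. The fit was tested on simulated independent normal values with no pairing by replicate and no background floor. That test does not cover these traits of the data. Samples with the same replicate number deviated together (correlations of 0.65, 0.45 and 0.43), so the numbers pair the samples. The reported fit does not use that pairing, and only the replicate block does. The members, lists and tests were chosen with earlier results of these data known. Named were all granzymes, the genes of the protease run, up to 4 genes past the threshold per list, a set of pathway and marker genes, and the 5 genes nearest in profile to Gzmb and to Gzme. Markers not above background, Arl15, Runx1, Kdr, Cdh5, Pecam1, Cd4, Csf3r, Itgam and Serpina3n were named outside that rule, after their values were seen. So were Zap70, Il2rb, Cd7, Lck, Cd5, Cd8a, Itga2, Slc18a2, Gata2, Mitf, Prss34, Hdc and Tpsb2. The values of 1 gene of the NK and T cell list, which its counts include, are not reported here. Alternatives were normexp (offset 50), quantile, median and spike-in scaling, other filters and probe rules, leaving out each array, and the replicate block.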

Additional observations from a re-analysis of the deposited data

Results flagged for a closer look

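Granzyme signal was also present on the induced technical repeat array, which entered no comparison. Relative to that array's 75th percentile, its log2 signal was higher than on each of the 3 uninduced replicate arrays for 8 probes. It was 4.37 for Gzmb, 4.56 for Gzmc, 0.10 for Gzmd, 6.33 and 6.19 for the Gzme probes, -0.58 for Gzmg and -3.19 for Gzmn. Gzmm, at -1.20, was only slightly above the uninduced replicates, and its difference in the replicates did not pass the threshold. Which replicate's RNA was hybridised again was not given in the sources used here.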

How the results depend on the processing

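The calls of the granzymes, chosen on this contrast, are a description in every alternative. The count of granzymes higher was 5 with normexp and 1, Gzme alone, where only probes detected on all 6 arrays were kept, since fewer genes are then tested. With spike-in scaling Gzma (0.87), Gzmk (0.87), Eng (0.21), Igf2r (0.051), Cd3e (0.79), Runx1 (0.10) and Runx3 (0.96) changed sign, and 11 genes were lower. Eomes did so with normexp (-0.023), and leaving out 1 array in turn put it between -0.024 and 0.69. Over those runs Kit lay between -0.015 and 1.33 and Prf1 between -0.057 and 0.10 (-0.048 without uninduced replicate 2). Without a filter on dim probes 356 genes were higher and 178 lower. With the replicate block 1360 were higher and 987 lower, among them all 915 called without it. Leaving out 1 array in turn gave 274 to 541 genes higher and 105 to 283 lower. The lowest and highest counts over those runs were 1 and 3 activation and carriage genes rising and 0 and 1 falling, 0 and 1 release genes rising, 0 and 2 inhibitors falling, 1 and 2 regulators rising and 0 and 1 falling, 0 and 1 NK and T cell markers in either direction, 2 and 3 macrophage and granulocyte markers rising and 0 and 1 falling, and 0 and 1 endothelial markers rising and 0 and 2 falling. With the block 2 release genes, 3 regulators, 2 NK and T cell, 2 mast cell and 5 macrophage markers rose and 3 inhibitors fell. With spike-in scaling 4 NK and T cell markers and 1 mast cell marker rose. Apart from the changes caused by testing fewer genes or samples, the cause was not tested. The slide could not be used as a block, all arrays being on 1 slide. Signals near background limit the differences of Gzmb, Gzmc, Gzmd, Gzmg, Gzmn, Mcpt-ps1, Mcpt1, Mcpt2, Mcpt4, Mcpt8, Batf, Fcgr3, Ncf1 and Runx1. The same holds for Zap70, Il2rb, Cd8a, Itga2 and Prss34.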
